A study of Mus musculus with 16 samples.

Results

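The genes of 4 peptides that β cells secrete were examined: Ins1 and Ins2, which encode the 2 mouse preproinsulins, Iapp, which encodes amylin (islet amyloid polypeptide), and Ucn3, which encodes urocortin 3. They were taken by gene symbol from a matrix of 25105 genes, and all 4 passed the filter on low values in every comparison. The values are RPKM, that is, read counts scaled by gene length and by the number of mapped reads. The samples were dispersed islet cells of Grp78 fl/fl mice, so that every group carried the floxed alleles of Grp78, the gene of the endoplasmic reticulum (ER) chaperone that the matrix lists as Hspa5. Cells were transduced with adenovirus expressing LacZ (Ad-LacZ, control) or Cre recombinase (Ad-Cre, knockdown), with vehicle or with JNK-IN-8, an inhibitor of all JNK kinases, and were cultured in 15 mM glucose for 72 hours. Thus 4 groups were compared, the 2 viruses with vehicle and the 2 with inhibitor (written + JNK inhibitor), each with 1 library from each of 4 islet preparations named F1, M1, M2 and F2 (n = 4 per group). The labels give 2 animal numbers for a preparation and no age per sample, no group was left without virus, and the adenovirus was given to the whole mixture of islet cells rather than to β cells alone.

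Insulin lowers blood glucose, and it is made as a preprohormone that is folded and oxidised in the ER, sorted into granules and cut by prohormone convertases. Mice, unlike humans, have a pair of nonallelic insulin genes; Ins2 has the structure shared with other mammals, and Ins1 arose from it by retroposition. Amylin is packed into the same granules and is released with insulin. Urocortin 3 is a peptide of the corticotropin-releasing factor family that mouse β cells start to make late in maturation and that acts on neighbouring δ cells, and it is used as a marker of mature β cells.

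Because Ins1 and Ins2 are near-identical copies, the sequence that tells their reads apart is shown first. Ins1 (ENSMUSG00000035804) lies on the forward strand at chr19:52264297-52265476 and Ins2 (ENSMUSG00000000215) on the reverse strand at chr7:142678656-142743381 of the mouse genome GRCm38. Their coding sequences, of 327 and 333 bases, were identical at 302 of 333 aligned positions (90.69%). The longest run without a difference was 56 bases. The following stretch covers coding bases 61 to 210, with the 7 bases that differ between the genes in capitals; for Ins1 it is chr19:52264684-52264833, forward strand, and for Ins2 chr7:142678836-142679473, reverse strand, where an intron interrupts it.
Ins1: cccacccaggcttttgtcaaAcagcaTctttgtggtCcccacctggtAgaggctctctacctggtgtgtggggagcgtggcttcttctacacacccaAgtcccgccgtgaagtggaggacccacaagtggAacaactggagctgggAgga
Ins2: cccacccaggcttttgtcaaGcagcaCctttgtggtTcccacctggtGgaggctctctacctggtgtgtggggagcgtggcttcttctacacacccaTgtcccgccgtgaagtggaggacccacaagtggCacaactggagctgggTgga
Reads were paired, 150 bases each. None of the 913 stretches of 150 bases in the annotated Ins1 transcript occurred in the transcript that spells Ins2 above, none of 988 stretches of 75 bases did, and 7 of 1013 stretches of 50 bases did. How reads that fit both genes were counted is not given in the sources used here, so the split between Ins1 and Ins2 remains less certain than their sum. Iapp (ENSMUSG00000041681, chr6:142298423-142303961, forward strand) and Ucn3 (ENSMUSG00000044988, chr13:3940688-3945349, reverse strand) have no such copy among the 4 genes. Iapp overlaps Slco1a5, a transporter gene on the opposite strand, but their exons do not, and Slco1a5 was listed at 0.524 to 1.53 RPKM.

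Depth, inferred from the spacing of the lowest RPKM values, was 7.71 to 25.4 M (mega) reads, and the lowest was the library of Ad-Cre + JNK inhibitor in preparation F2. It is the only 1 of 16 whose column name has another prefix and ending than the other 15, and the labels do not say what these stand for. The lowest inferred depth is below the range of raw counts per sample that the paper states, and the difference was not resolved. At the inferred depths Ucn3 rested on at least 474 estimated reads in each library. Hspa5, the targeted gene, was higher in the libraries labelled knockdown: it had 438 ± 49.0 RPKM in Ad-LacZ, 1264 ± 231 in Ad-Cre, 410 ± 58.4 in Ad-LacZ + JNK inhibitor and 1415 ± 189 in Ad-Cre + JNK inhibitor (SD, n = 4 each). The matrix has no values by exon that would show the floxed part alone, and in what follows Ad-Cre names the libraries labelled so.

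The members differed widely in level. Summed RPKM of both insulin genes made up 20.3% ± 3.6 of all RPKM in Ad-LacZ, 16.7% ± 5.59 in Ad-Cre, 14.0% ± 2.80 in Ad-LacZ + JNK inhibitor and 13.8% ± 2.57 in Ad-Cre + JNK inhibitor (SD, n = 4 each). Ins2 was the highest of all genes in 15 of 16 libraries and the second in Ad-Cre + JNK inhibitor of preparation M2. Ins1 ranked 2 or 3, Iapp between 4 and 18, and Ucn3 between 34 and 2392. The level of Ins2 against the others depends on the gene length used by the authors, which is not stated: the annotated exons of Ins2 cover 1312 bases, and those of the transcript spelled above 478 bases. Preparations differed as well, and M2 had the lowest Ins2 RPKM in each of the 4 groups. In such bulk samples, fewer β cells and less RNA per β cell cannot be told apart.

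**Figure D1:**
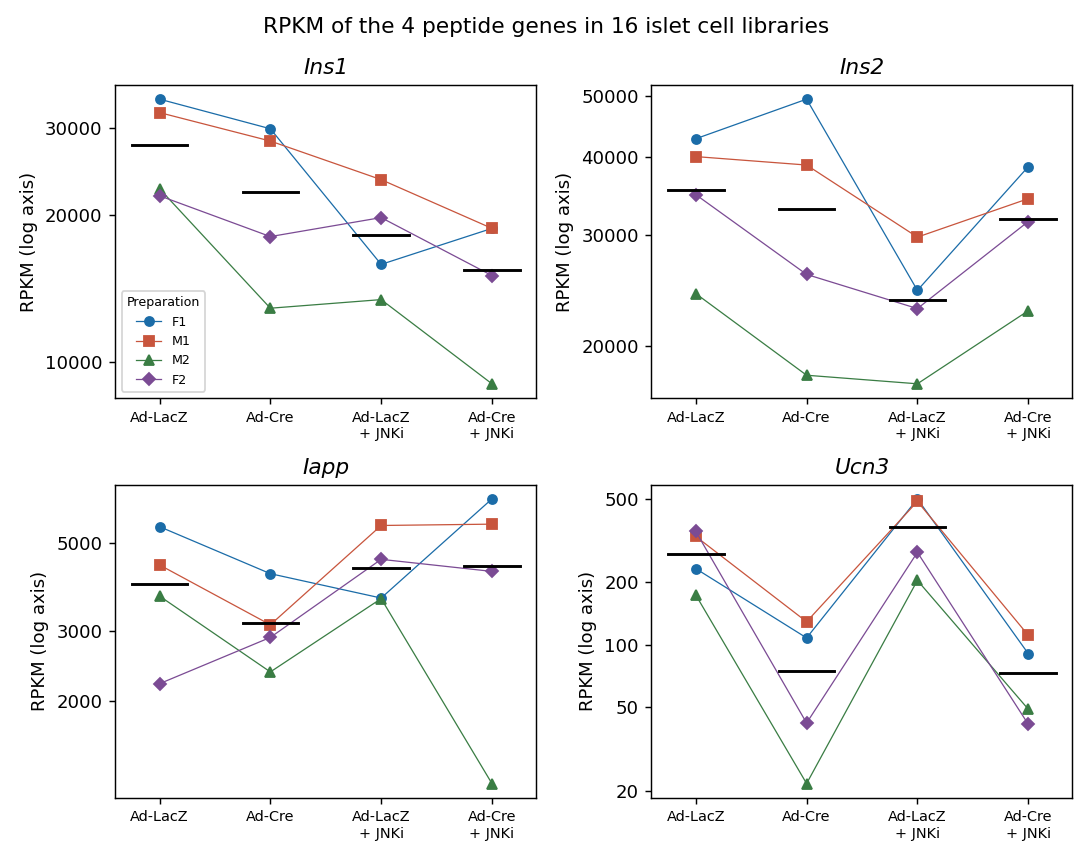
RPKM of Ins1, Ins2, Iapp and Ucn3 (log axes) in the 4 groups; each point is 1 library, lines join the libraries of 1 preparation and black bars are group means. Ucn3 lies lower in both Ad-Cre groups, at 21.6 to 129 RPKM, than in both Ad-LacZ groups, at 173 to 499 RPKM, whereas Ins1, Ins2 and Iapp overlap between the groups of each of the 4 comparisons.

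Of the 4 members, Ucn3 differed most between Ad-Cre and Ad-LacZ. In Ad-LacZ of F1, M1, M2 and F2 it had 231, 330, 173 and 348 RPKM. In Ad-Cre it had 108, 129, 21.6 and 42.1 RPKM in the same order. Every Ad-Cre library lay below every Ad-LacZ library, and the means were 75 ± 51.3 and 270 ± 83.0 RPKM (SD, n = 4). On the log2(TMM-scaled RPKM + 1) scale, where TMM is the trimmed mean of M-values scaling between libraries, Ucn3 fell by 2.08 (SE 0.57, adjusted p = 0.0352 in limma with Benjamini-Hochberg adjustment over 11590 genes). The exact two-sided permutation test gave p = 0.0286, the smallest that 4 libraries against 4 allow. Only 1 other gene had a lower log2 fold change. The call held with the preparation as a replicate block (adjusted p = 0.00471), but the adjusted p was 0.0677 without F1, 0.0667 without M1 and 0.183 without F2. The size of the difference ranged from -1.03 in F1 and -1.33 in M1 to -2.91 in M2 and -3.07 in F2.

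The insulin genes and Iapp did not pass the test in the same comparison. A gene was called at an adjusted p under 0.05 and a fold change above 1.5, which 8.76% of the genes tested met, and groups did not overlap for 27.5% of them; Ucn3 was the 1 of 4 members that met either. Ins1 had 34425, 32316, 22583 and 21850 RPKM in Ad-LacZ of F1, M1, M2 and F2. In Ad-Cre it had 29950, 28268, 12874 and 18034 RPKM. Ins1 was lower in Ad-Cre in 4 of 4 preparations, but the groups overlapped, and the log2 difference was -0.35 (SE 0.41, 95% interval -1.29 to 0.58, adjusted p = 0.580 in limma). Ins2 had 42737, 40027, 24209 and 34809 RPKM in Ad-LacZ and 49417, 38806, 17943 and 25975 RPKM in Ad-Cre. It was higher in F1 and lower in the other 3 preparations, with a log2 difference of -0.16 (SE 0.45, 95% interval -1.19 to 0.87, adjusted p = 0.832 in limma). Iapp had 5509, 4411, 3681 and 2214 RPKM in Ad-LacZ and 4193, 3116, 2370 and 2896 RPKM in Ad-Cre, and it was lower in 3 of 4 preparations. Its log2 difference was -0.27 (SE 0.34, 95% interval -1.03 to 0.49, adjusted p = 0.608 in limma). The intervals do not exclude a fall of up to the lower bound for any of these 3 genes.

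Under the JNK inhibitor the virus comparison again separated Ucn3 alone. Ucn3 had 499, 485, 203 and 277 RPKM in Ad-LacZ + JNK inhibitor of F1, M1, M2 and F2, and 90.6, 111, 49.1 and 41.6 RPKM in Ad-Cre + JNK inhibitor. The groups did not overlap, with means of 366 ± 149 and 73.1 ± 33.2 RPKM (SD, n = 4). Ucn3 fell by 2.19 on the log2 scale (SE 0.43, adjusted p = 0.00802 in limma, and p = 0.0286 in the exact two-sided permutation test). The adjusted p was 0.0519 without F2, the preparation with the library of lowest inferred depth and another column name prefix. Of all genes tested, 15.1% were called and 27.7% had groups that did not overlap, and Ucn3 was again the 1 member of 4 in each count.

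Ins2 had the opposite sign to Ucn3 under the inhibitor. It had 24501, 29787, 17388 and 22915 RPKM in Ad-LacZ + JNK inhibitor of F1, M1, M2 and F2, and 38561, 34294, 22731 and 31536 RPKM in Ad-Cre + JNK inhibitor. Ins2 was higher with Ad-Cre in 4 of 4 preparations while the groups overlapped. The log2 difference was 0.56 (SE 0.32, 95% interval -0.17 to 1.29, adjusted p = 0.246 in limma). With the preparation as a replicate block its adjusted p was 0.0351, but its fold change of 1.47 stayed under 1.5, so that it was not among the 15.9% of genes called with the block. Ins1 had 15822, 23575, 13407 and 19720 RPKM without Cre and 18741, 18745, 9022 and 15012 RPKM with it. Its log2 difference was -0.13 (SE 0.34, 95% interval -0.90 to 0.64, adjusted p = 0.817 in limma), and the groups overlapped. Iapp had 3640, 5547, 3628 and 4557 RPKM in Ad-LacZ + JNK inhibitor and 6473, 5591, 1239 and 4249 RPKM in Ad-Cre + JNK inhibitor. Its log2 difference was -0.07 (SE 0.49, 95% interval -1.17 to 1.04, adjusted p = 0.936 in limma), and M2 alone, with a difference of -1.28, was lower, while the other 3 preparations were above 0.

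That Ad-Cre + JNK inhibitor library of M2 also stood apart in the summed markers of α and δ cells. It had the highest summed RPKM of 10 α cell markers, 27394 against 11190 to 23483 in the other 15 libraries, and of 6 δ cell markers, 6846 against 1151 to 3861. None of these 16 markers was at 0 in all libraries, but the sums were mostly Gcg, at up to 26503 RPKM in this group, and Sst, at up to 6660 RPKM. The PP and epsilon cell markers of the M2 library did not stand apart, with a sum of 5224 RPKM within 2229 to 6797 over all libraries. Within its group the M2 library had the lowest Ins1, Ins2 and Iapp, while Ucn3 was lower still in F2. The part of these markers in the values of M2 was not tested.

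The JNK inhibitor itself called none of the 4 genes with either virus. In Ad-Cre cells 0% of 11503 genes were called at the adjusted p (fold change above 1.2), against 8.80% at an unadjusted p under 0.05, 6.00% with the preparation as a replicate block and 7.00% whose groups did not overlap. None of the members was in any of these counts. Ins1 was lower with the inhibitor in 4 of 4 preparations, with differences of -0.136 to -0.558 on the log2 scale, with a fitted difference of -0.37 (SE 0.39, adjusted p = 0.846 in limma). Ins2 differed by 0.17 (SE 0.38), Iapp by 0.42 (SE 0.51) and Ucn3 by 0.31 (SE 0.60). For Ucn3 this rested on M2, whose difference was 1.36 when the others lay between -0.128 and 0.109, and without M2 the fitted value was -0.05.

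In Ad-LacZ cells, where 0.206% of 11657 genes were called, 4.79% at the unadjusted p, and 4.70% did not overlap between groups, again 0 of 4 members met any of the 3. Both insulin genes were lower with the inhibitor in each preparation. Ins1 differed by -0.60 (SE 0.35, 95% interval -1.38 to 0.18, adjusted p = 0.933 in limma), or -0.244 to -0.978 by preparation. Ins2 differed by -0.56 (SE 0.37, 95% interval -1.40 to 0.29, adjusted p = 0.972 in limma), or -0.424 to -0.699 by preparation. With the preparation as a replicate block the adjusted p was 0.219 for Ins1 and 0.151 for Ins2, so neither passed. Ucn3 differed by 0.41 (SE 0.39), and by 0.13 without F1 and 0.69 without F2. Iapp differed by 0.21 (SE 0.32), by 0.43 without F1 and by -0.033 without F2. Both were higher in 3 of 4 preparations.

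**Figure D2:**
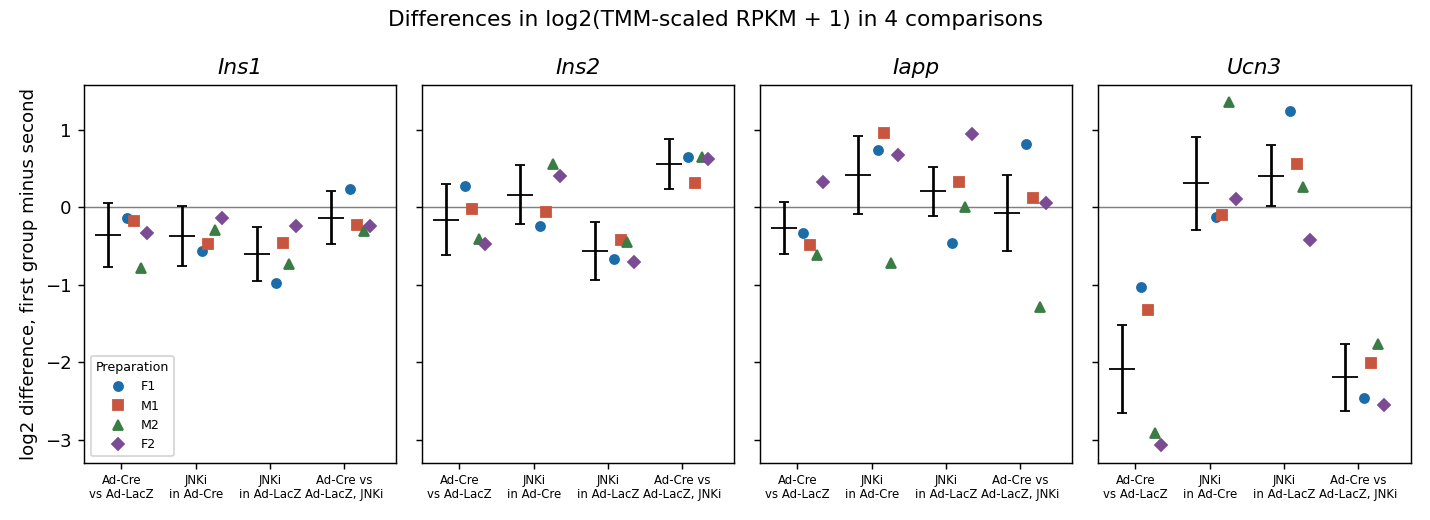
Log2 differences of each gene in 4 comparisons (first group minus second, TMM-scaled RPKM + 1); black bars are the fitted difference ± SE and coloured points the difference within each preparation. All 8 points of the virus comparisons of Ucn3 lie at or below -1.03, and the 4 points of Ins2 are all negative for the inhibitor in Ad-LacZ and all positive for the virus under inhibitor. Both of these Ins2 comparisons contain the same Ad-LacZ + JNK inhibitor libraries.

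Whether the virus difference itself differed with the inhibitor was tested as an interaction, in which 0.0163% of 12274 genes were called and none of the 4 members was. The interaction of Ucn3 was -0.09 (SE 0.79, 95% interval -1.77 to 1.59), which leaves room for a difference in either direction. That of Ins2 was 0.74 (SE 0.51, 95% interval -0.35 to 1.82, unadjusted p = 0.169 in limma), and it was positive in 4 of 4 preparations. With the preparation as a replicate block Ins2 had an unadjusted p of 0.00379 in limma and an adjusted p of 0.222. Those of Ins1 (0.25, SE 0.50) and Iapp (0.22, SE 0.64) were smaller than their errors. The same Ad-LacZ + JNK inhibitor libraries enter the interaction, the virus comparison under the inhibitor and the inhibitor comparison in Ad-LacZ. The signs of Ins2 in them are therefore not separate results. Mean Ins2 was 23647 ± 5103 RPKM in those libraries and 35446 ± 8182 in Ad-LacZ. It was 33035 ± 13896 in Ad-Cre and 31781 ± 6689 in Ad-Cre + JNK inhibitor (SD, n = 4 each).

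Ratios between members within a library do not depend on the scaling between libraries. In Ad-LacZ of F1, M1, M2 and F2 there were 5.41, 8.23, 7.13 and 10.0 RPKM of Ucn3 per 1000 RPKM of Ins2. Ad-Cre had 2.18, 3.32, 1.2 and 1.62, all below the Ad-LacZ libraries. The mean log2 ratio differed by -1.95 (SE 0.36, exact two-sided permutation p = 0.0286), and that of Ucn3 to Ins1 differed by -1.76 (SE 0.42, exact p = 0.0286). Under the inhibitor the differences were -2.77 (SE 0.33) against Ins2 and -2.08 (SE 0.36) against Ins1, with the same exact p = 0.0286 and no overlap. With 4 ratios in 4 comparisons the adjusted p was 0.0653 for each of these, so none of 16 passed the correction, and no ratio could have an exact p below 0.0286.

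The ratio of Ucn3 to Ins2 was higher with the inhibitor in Ad-LacZ cells. Ucn3 per 1000 Ins2 was 20.3, 16.3, 11.7 and 12.1, each above all 4 Ad-LacZ libraries without inhibitor. The log2 difference was 0.97 (SE 0.27, exact permutation p = 0.0286, adjusted p = 0.0653), higher in 4 of 4 preparations by 0.272 to 1.91. Without F1 it was 0.66. The fitted differences of the single genes were 0.41 for Ucn3 and -0.56 for Ins2, and neither passed its own test. In Ad-Cre cells the corresponding difference was 0.16 (SE 0.41, exact permutation p = 0.714). Against Ins1 the groups overlapped with either virus: in Ad-LacZ cells the difference was 1.01 (SE 0.38, exact permutation p = 0.0857, lower in F2 and higher in the other 3 preparations), or 0.60 without F1, and in Ad-Cre cells 0.69 (SE 0.40, exact permutation p = 0.143, higher in 4 of 4 preparations), or 0.35 without M2.

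The ratio of Ins1 to Ins2 was lowest where Ad-Cre and the inhibitor were combined. Ins1 per Ins2 RPKM was 0.793 ± 0.125 in Ad-LacZ, 0.687 ± 0.0555 in Ad-Cre, 0.767 ± 0.0896 in Ad-LacZ + JNK inhibitor and 0.476 ± 0.0615 in Ad-Cre + JNK inhibitor (SD, n = 4 each). The last group held 0.486, 0.547, 0.397 and 0.476, below the lowest value of the other 3 groups, 0.606. Against Ad-Cre the log2 ratio differed by -0.53 (SE 0.11, exact permutation p = 0.0286, adjusted p = 0.0653, lower in 4 of 4 preparations). Against Ad-LacZ + JNK inhibitor it differed by -0.69 (SE 0.13, exact permutation p = 0.0286, adjusted p = 0.0653, lower in 4 of 4). The difference was -0.20 (SE 0.13, exact permutation p = 0.2) for Ad-Cre against Ad-LacZ and -0.04 (SE 0.15, exact permutation p = 0.771) for the inhibitor in Ad-LacZ. Whether the differences themselves differed between these comparisons was not tested. Iapp per Ins2 had overlapping groups in all 4 comparisons, with differences from -0.63 to 0.77. The lowest, for the virus under inhibitor, was -0.19 without M2, and the highest, for the inhibitor in Ad-LacZ, was 0.47 without F2.

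**Figure D3:**
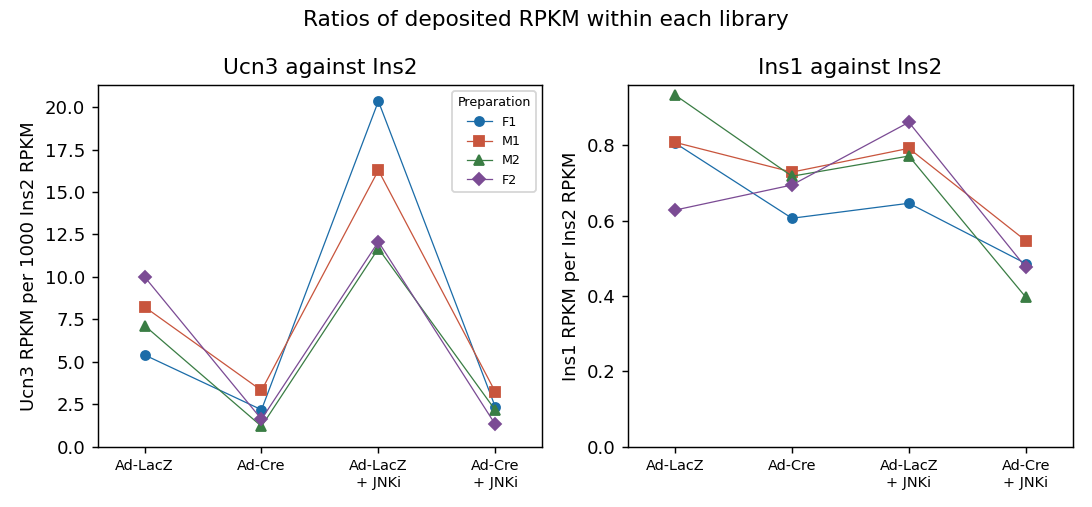
Ucn3 RPKM per 1000 Ins2 RPKM (left) and Ins1 RPKM per Ins2 RPKM (right) in the 4 groups; each point is 1 library and lines join the libraries of 1 preparation. On the left both Ad-Cre groups stay at or below 3.32 and Ad-LacZ + JNK inhibitor starts at 11.7, and on the right Ad-Cre + JNK inhibitor ends at 0.547, below all other libraries.

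Levels of the 4 genes were compared across the 16 libraries as a description. Libraries of 1 preparation share their donors, so the points are not independent. Ins1 and Ins2 had a Pearson r of 0.79, and 0.40 after centring within preparations. Ucn3 had r = 0.51 with Ins1, 0.25 with Ins2 and 0.39 with Iapp, and centring took its r with Ins2 to -0.30. Among 12274 genes, those whose level was most like that of Ucn3 were Exph5 (r = 0.97), a Rab27 effector, 9330182L06Rik, Maob, a monoamine oxidase, Prlr, the prolactin receptor, and Bambi-ps1. The closest to Ins2 were Scg5 (r = 0.96), the chaperone 7B2 of prohormone convertase 2, then Anapc5, Fkbp4, Tmem42 and Cog7. The closest to Ins1 were Ptpn11 (r = 0.96), Cpeb3, Pnmal2, Rtl8c and Suox, and those closest to Iapp were Ndufc2 (r = 0.94), Tmem147, Tmem242, Slc7a4 and Tbcd. These 20 genes did not include any of the 4 members.

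Transcription factors that regulate hormone genes of the islet formed the next list. Of its 18 genes 16 were tested, and 6 fell and none rose in Ad-Cre against Ad-LacZ, where 8.76% of all genes were called. The median log2 difference was -0.75 against 0.01 over all genes. With the preparation as a replicate block, which called 10.9% of all genes, 10 fell. Neurod1, which binds the E boxes of the insulin promoter, decreased from 115 ± 37.5 to 44.7 ± 7.68 RPKM (SD, n = 4), or by 1.28 on the log2 scale (adjusted p = 0.00657 in limma). Myt1 fell by 1.11, Nkx2-2 fell by 1.09 and Rfx6 fell by 0.85, all transcription factors of endocrine cells. Mafa, an activator of insulin transcription in mature β cells, differed by -1.64 without passing (adjusted p = 0.0502 in limma). With the preparation as a replicate block Mafa was called (adjusted p = 0.00419 in limma). Under the inhibitor, where 15.1% of all genes were called, 8 of 16 fell and none rose, with a median of -0.70 against -0.03 over all genes. With the block, which called 15.9% of all genes, 11 fell. Mafa then fell by 1.72 and Neurod1 fell by 1.53. The inhibitor called 0 of the 16 regulators with either virus in limma, with or without the block, and 0 had an unadjusted p under 0.05.

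A list of 23 genes tied to β cell maturity, without Ucn3, came next, and 1 of them is not a row of the matrix. The list set no direction for each gene, and it holds Pyy, which is also listed as a PP cell marker. Its counts and medians are therefore not a measure of maturity. Of 22 tested, 7 fell and none rose in Ad-Cre against Ad-LacZ, where 8.76% of all genes were called, with a median of -0.51. Under the replicate block, which called 10.9% of all genes, 10 fell and 1 rose (Dlk1, by 0.62). G6pc2, the islet glucose-6-phosphatase subunit, decreased from 790 ± 163 to 209 ± 69.0 RPKM (SD, n = 4), or by 1.94 on the log2 scale (adjusted p = 0.00497 in limma). Sytl4, which encodes granuphilin, fell by 1.41, Prlr fell by 1.16 and Trpm5, a cation channel, fell by 0.92. Under the inhibitor, where 15.1% of all genes were called, 9 of 22 fell and none rose, with a median of -0.61. Among the 9 were G6pc2 (by 2.33), Sytl4 (by 1.77), Mafa (by 1.72) and Slc2a2, the glucose transporter GLUT2 (by 1.69). With the block, which called 15.9% of all genes, 10 fell and 2 rose (Dlk1, by 0.91, and Pyy, by 0.87). In Ad-Cre cells the inhibitor called 0 of 22 in limma, and 1 had an unadjusted p under 0.05. With the block, which called 6.00% of all genes, 2 rose. In Ad-LacZ cells 0 of 22 were called and 1 had an unadjusted p under 0.05.

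Genes that fold, cut and store the prohormones were divided. Of 19 listed and 17 tested, 2 rose and 1 fell in Ad-Cre against Ad-LacZ, where 8.76% of all genes were called. The median was -0.09. Pdia4 and Pdia3, disulfide isomerases of the ER, rose by 3.01 and 1.14 on the log2 scale, and Slc30a8, the zinc transporter of the insulin granule, fell by 0.88. Under the replicate block, which called 10.9% of all genes, 3 rose and 2 fell, Vgf (1.01) and Pcsk1 (-0.92) being added. Under the inhibitor, where 15.1% of all genes were called, 3 rose and 1 fell. Pdia4 rose by 3.44, Vgf, a granin, by 1.68 and Pdia3 by 1.48, and Slc30a8 fell by 0.73. With the block, which called 15.9% of all genes, Pcsk1 (-0.87) was called as well, so that 2 fell. For the inhibitor in Ad-Cre cells 0 of 17 were called in limma and 6 had an unadjusted p under 0.05. With the preparation as a replicate block, which called 6.00% of all genes, 6 rose. One of these was Pcsk1, the convertase that starts the cutting of proinsulin, with a log2 difference of 0.89 (adjusted p = 0.470 in limma, 0.0105 with the block). In Ad-LacZ cells 0 of 17 were called and 3 had an unadjusted p under 0.05, of which 2 were higher. With the block, which called 42 of 11657 genes, 1 was higher. Pcsk1 had 161 ± 28.8 RPKM in Ad-LacZ and 285 ± 44.7 in Ad-LacZ + JNK inhibitor (SD, n = 4 each). Its mean was thus higher with the inhibitor in Ad-LacZ cells as well, without a call at the adjusted p in limma.

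**Figure D4:**
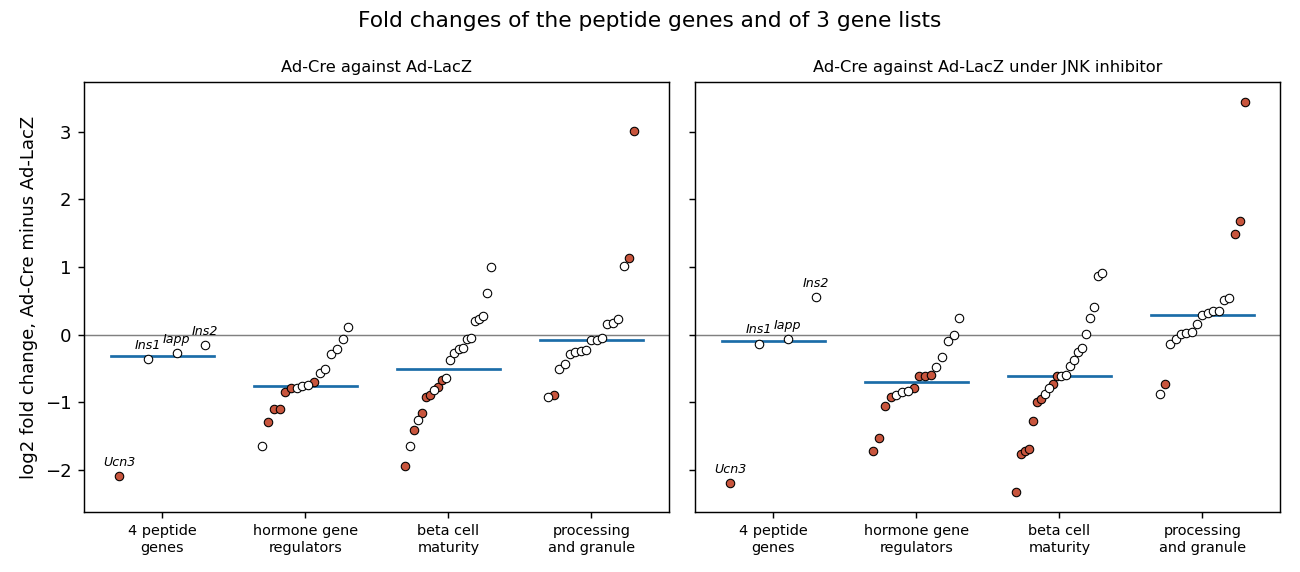
Log2 fold change of the 4 peptide genes and of 3 gene lists with Ad-Cre, without (left) and with (right) the JNK inhibitor; each point is 1 gene, red points passed the adjusted p and the fold change, and blue lines are list medians. Ucn3 lies among the lowest genes of either panel, Ins1, Ins2 and Iapp were not called, and the regulator medians are -0.75 and -0.70.

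Receptors that bind these peptides were measured in the same libraries. Of 20 genes of peptide reception and signalling 9 passed the filter, and none of the other 8 was called beside Crhr1 in either virus comparison. Crhr1, a receptor of the corticotropin-releasing factor family, had 2.59 ± 0.287 RPKM in Ad-LacZ and 0.907 ± 0.382 in Ad-Cre, and 2.43 ± 1.19 and 0.482 ± 0.303 RPKM under the inhibitor (SD, n = 4 each). It passed the filter mainly through its Ad-LacZ groups, so its call is no support for a difference among receptors. Crhr2, the receptor that urocortin 3 binds, did not exceed 0.173 RPKM in any library, and Calcr, the calcitonin receptor that forms amylin receptors with RAMP proteins, did not exceed 0.0756 RPKM. Insr, the insulin receptor, had group means between 3.49 and 4.23 RPKM.

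Bases before the annotated start are shown for Ins1, an insulin gene with no call, and for Ucn3, which fell in both virus comparisons. They were chosen because regulators with known binding letters moved. The stretches are the 250 bases before each gene's start in RefSeq (GRCm38.p6), written along the gene's strand, chr19:52264047-52264296 forward for Ins1 and chr13:3945350-3945599 reverse for Ucn3. RefSeq entries were matched for Ins1, Iapp and Ucn3. Bases after the annotated start were not searched. For Ins1 these run on to a coding sequence whose base 61 is at chr19:52264684, so sites closer to the coding sequence were outside the search. Capitals mark the matched E box letters.
Ins1: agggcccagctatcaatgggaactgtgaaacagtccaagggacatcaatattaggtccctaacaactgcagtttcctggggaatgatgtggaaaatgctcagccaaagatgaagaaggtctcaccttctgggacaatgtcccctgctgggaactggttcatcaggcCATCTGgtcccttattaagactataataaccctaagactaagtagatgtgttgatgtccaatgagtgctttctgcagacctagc
Ucn3: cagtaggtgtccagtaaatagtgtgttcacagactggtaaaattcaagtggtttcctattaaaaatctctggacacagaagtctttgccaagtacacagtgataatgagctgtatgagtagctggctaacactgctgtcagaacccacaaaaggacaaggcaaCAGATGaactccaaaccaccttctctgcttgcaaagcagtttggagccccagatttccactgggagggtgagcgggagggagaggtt
The letters searched, on both strands, were CATCTG (an E box), TAATTA and TTAATG (homeodomain cores), TGACG (part of a cyclic AMP response element), TGCTGA (part of a MAF site) and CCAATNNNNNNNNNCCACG (the ER stress response element). CATCTG occurred once in each of the 3 stretches, and in 14.4% of 32851 promoters. Counted from the annotated start, it began at -84 in Ins1, at -111 in Iapp and, on the opposite strand as CAGATG, at -87 in Ucn3. TTAATG occurred 3 times in Iapp, at -137, -75 and -73, of which the last overlap, and in 7.91% of promoters. The others had no match in the 3 stretches, which does not describe the whole promoters. They were held by 4.84% (TAATTA), 17.8% (TGACG), 16.1% (TGCTGA) and 0.113% (the ER stress response element) of promoters.

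Markers of other cells moved with some groups. Macrophage markers, of which 10 were listed and none was at 0 in all libraries, summed to 72.2 to 81.6 RPKM in Ad-LacZ, 71.5 to 216 in Ad-Cre, 137 to 322 in Ad-LacZ + JNK inhibitor and 176 to 297 in Ad-Cre + JNK inhibitor. C1qc rose in Ad-Cre against Ad-LacZ, by 0.93 on the log2 scale. C1qb, also called, passed the filter mainly through Ad-Cre, with 1.66 to 4.80 RPKM against 0.127 to 1.28 in Ad-LacZ. Under the replicate block, which called 10.9% of all genes, 4 of 8 macrophage markers tested were called higher in this comparison. Cd68 rose by 1.22 with the inhibitor in Ad-LacZ. The 10 stellate markers summed to 192 to 625 RPKM in Ad-LacZ and 205 to 1977 in Ad-Cre. They summed to 187 to 1304 RPKM in Ad-LacZ + JNK inhibitor and 146 to 850 in Ad-Cre + JNK inhibitor. M2 had the highest sum in each group. None of these markers was called in any comparison without the block. With it 4 of 9 tested were lower with Ad-Cre under the inhibitor, where 15.9% of all genes were called. With the inhibitor in Ad-Cre 2 of 8 were lower, against 6.00% of all genes called. In Ad-LacZ 1 of 7 was higher with the inhibitor, where 42 of 11657 genes were called. Gcg, the glucagon gene of α cells, had 14165 ± 3055 RPKM in Ad-LacZ and 14423 ± 4248 in Ad-Cre (SD, n = 4), and no α or δ cell marker was called in any comparison without the block. With the block 1 of 10 α cell markers, Slc7a2, was lower in Ad-Cre against Ad-LacZ, where 10.9% of all genes were called. For the inhibitor in Ad-Cre it called 2 of 10 α cell markers higher (Ttr and Irx1) and 1 lower (Loxl4). It also called 2 of 5 δ cell markers higher there (Sst and Rbp4), against 6.00% of all genes. For the virus under inhibitor, where it called 15.9% of all genes, 1 of 10 (Ttr) and 2 of 5 (Sst and Rbp4) were higher. Under the inhibitor Ppy, the hormone of PP cells, rose by 0.92 with Ad-Cre. Of the duct cell markers Krt18 and Epcam rose in that comparison, by 0.80 and 0.75, and Spp1 fell by 1.30. The 15 acinar markers, 1 of which was at 0 in all libraries, summed to 2.20 to 12.7 RPKM and endothelial markers to 17.5 to 66.5 RPKM over all libraries. The part of these cells in the Ucn3 differences was not tested. The β cell markers of the label were present in every library, Mafa at no less than 39.4 RPKM and Slc2a2 at no less than 14.9 RPKM.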

How the data were processed

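Poly(A) RNA of 16 libraries was sequenced as paired ends. The authors aligned reads to the mouse genome (GRCm38 per the submitters' processing notes) and deposited RPKM values; the counter, the gene lengths and the step from counts to RPKM are not given in the sources used here. RPKM are not counts, so no count test was run. A further 3 columns of values that no label names were not used. Samples were grouped by their labels.

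The filter kept a gene where 4 or more libraries of the comparison exceeded 1 RPKM. Kept genes were scaled by TMM factors on RPKM (unweighted, trim 0.3 of ratios and 0.05 of levels), and log2(value + 1) was fitted with limma 3.58.1 (eBayes with trend, R 4.3.3) on the 8 libraries of each comparison. This scale understates changes of low genes. Genes were called at a Benjamini-Hochberg adjusted p under 0.05 and a fold change above 1.5 (virus) or 1.2 (inhibitor); the interaction used all 16 libraries and the adjusted p alone. Log2 ratios of deposited RPKM were compared by exact two-sided permutation tests. Sequences were read with Python 3.11.15.

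Same numbers denote parallel cultures of the same islets, and residuals of same-numbered libraries correlated in every pair (0.126 to 0.824 over the 4 comparisons); blocked values stand beside results where they change a call or move a count by over 1.5 times. P-values measure the spread among these preparations. Depth (7.71 to 25.4 M reads) came from steps of low RPKM times exon length (GENCODE M21). The members and gene lists were chosen with earlier results of these data known. Besides the members, the text names the 5 genes whose level correlated best with each, at most 4 called genes per list and comparison, defining markers and Hspa5; the genes called with the block alone and the values of Insr, Calcr, Crhr2, Slco1a5 and Mafa without a call were chosen for naming after they were seen. The fit was tested on simulated data.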

Additional observations from a re-analysis of the deposited data

How the results depend on the processing

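The fall of Ucn3 kept its sign under the 13 alternatives of each virus comparison, from -2.43 to -1.76 on the log2 scale for Ad-Cre against Ad-LacZ, where its adjusted p was 0.0882 with no filter and 0.0519 with a filter at 0.1 RPKM. Quantile normalization, which sets the highest gene to 1 value in every library and so cannot measure Ins2 where it ranks first, turned the sign of Ins2 (-0.16) and Iapp (-0.31) for the inhibitor in Ad-Cre, of Iapp (-0.018) for the inhibitor in Ad-LacZ, of Ins2 (-0.13) for the virus under inhibitor, and of the interactions of Ins1 (-0.18), Ins2 (-0.12) and Iapp (-0.32). RPKM rescaled to the sum without the 4 members gave Ins2 -0.077 for the inhibitor in Ad-Cre, and put the median of all genes between -0.069 and -0.29 over the 5 fits, against -0.034 to 0.0093 before. Leaving out 1 preparation gave Ucn3 -0.054 (without M2) to 0.46 for the inhibitor in Ad-Cre, Iapp -0.36 to 0.32 (without M2) for the virus under inhibitor, Iapp -0.033 (without F2) to 0.43 for the inhibitor in Ad-LacZ, and interactions of -0.093 (without F1) to 0.52 for Iapp and -0.50 to 0.35 (without F1, 0.11 without M1) for Ucn3. None of these was called. Of the ratios, leaving out 1 preparation gave -0.42 to 0.050 (without F1) for Iapp/Ins2 with Ad-Cre, -0.074 (without M2) to 0.31 for Ucn3/Ins2 and -0.0063 (without M1) to 0.76 for Iapp/Ins2 with the inhibitor in Ad-Cre, and -0.21 to 0.051 (without F1) for Ins1/Ins2 with the inhibitor in Ad-LacZ. The cause was not tested.

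Counts of called genes over all genes moved more. For Ad-Cre against Ad-LacZ there were 1015, and 327 to 763 with 1 preparation left out (327 without F2, 637 without M1, 649 without F1). For the inhibitor in Ad-Cre there were 0, against 5 with the rescaling, 78 with all 16 libraries in one fit and 690 with the replicate block. For the inhibitor in Ad-LacZ there were 24, against 6 with no filter, 7 with RPKM as deposited, 4 with the rescaling, 42 with the replicate block and 1 to 2 with 1 preparation left out. For the virus under inhibitor there were 1753, against 2689 with the rescaling and 573 to 2452 with 1 left out (573 without F2, 608 without M1). For the interaction there were 2, against 1 with quantile normalization and without trend, and 0 with the replicate block, the rescaling, unscaled RPKM, either looser filter, a pseudocount of 0.1 or any preparation left out. The replicate block changed the call of no member. For ratios, a sign-flip test over the 4 paired differences cannot give a p below 0.125.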
